A study of Mus musculus with 28 samples.

Results

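Wound skin taken on day 12 after a punch injury was compared with wound skin taken on day 10, in 4 libraries against 4, out of 28 libraries from 7 days. All genes of the count table entered the comparison, and the hair, pigment and matrix genes were described through gene lists. Both groups were MLKL+/+ mice of the C57BL/6J strain, 8 weeks old, which healed without treatment, so the day of sampling was the stated difference between them. A 6-mm punch had been made through the shaved back skin, and the whole site, with scab and the epithelial margin around it, was taken for RNA. A library could therefore mix new wound tissue with unwounded follicles, epidermis and deeper tissue of the margin, in a ratio that was not measured. The labels do not say that each library is a separate animal, so the p-values measure the spread between these libraries, which may be technical. Day 0 in the labels is called day 1 in the study, and it enters here only as context.

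In the remodelling phase of a skin wound, the provisional matrix laid down by fibroblasts is thinned and crosslinked, contractile myofibroblasts recede, and the migrating epidermis returns to its layered program. A growing hair follicle is built from a matrix of dividing cells around the dermal papilla. These cells differentiate into the inner root sheath, which moulds the hair, and into the hair shaft, which is made of hair keratins embedded in keratin-associated proteins. Melanocytes of the follicle bulb make pigment only while the follicle grows, and they pass melanosomes to the shaft cells.

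The 4 day 10 libraries held between 38686624 and 39516651 counts and the 4 day 12 libraries between 39986891 and 40655764. Levels are given as CPM, counts relative to the TMM-scaled library total, and are compared between genes only as FPKM, which is also divided by gene length. Of 29068 genes, 18107 had enough counts for edgeR's quasi-likelihood test, and a gene was called when its Benjamini-Hochberg adjusted p was under 0.05. At that limit 3383 genes (18.7% of those tested) were higher on day 12 and 3744 (20.7%) were lower, so that 39.4% were called in either direction. These shares are the background for each count of list members below. Higher genes made up 47.5% of the calls, against 63.7% when only library totals were used for scaling and 41.1% with upper quartile scaling. By the limits of the study's methods, a log2 fold change over 1.5 with an unadjusted P under 0.05, 628 genes (3.47%) were higher and 460 (2.54%) lower. Replicates of each group were close to each other, with a biological coefficient of variation of 5.68% on day 10 and 6.46% on day 12, against 25.9% on day 0. The skin markers Krt14 and Col1a1 were present in all 8 libraries, at 1049 CPM or more and 11332 CPM or more. Each of these 8 libraries held between 0 and 13 counts of Xist and between 2716 and 3487 counts of the Y-linked Ddx3y. The study states that mice of both sexes were used.

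Hair shaft keratins rose by large factors, and among the lists described here the keratin-associated proteins of the shaft had a higher median still. All 17 hair shaft keratins were higher on day 12, beside a background of 18.7% of the genes tested, with log2 fold changes from 1.64 to 10.18. The median was 7.81, or 7.63 with the 1 gene of at most 3 counts in every day 10 library at its bound, where the median over all genes was -0.02. Members with few counts on day 10, such as Krt86 and Krt34, entered the test through days on which they were expressed. The count therefore describes the list and is no support for it. The summed level of the 17 keratins was between 156 and 178 CPM in the day 10 libraries and between 2688 and 3606 CPM in the day 12 libraries, and no library of either day came near the other group. Fewer cells of a type and less RNA per cell cannot be told apart in whole tissue, here and in every result that follows.

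Krt86, a basic keratin of the hair cortex, was at 0.101, 0.124, 0.153 and 0.124 CPM in the day 10 libraries. It was at 132, 168, 118 and 181 CPM in those of day 12 (log2 fold change 10.18, standard error 0.75, adjusted p = 1.6e-11). Krt34, an acidic partner in the cortex, was at 0.126, 0.273, 0.153 and 0.174 CPM on day 10 and at 153, 200, 145 and 198 CPM on day 12 (log2 fold change 9.88, standard error 0.69, adjusted p = 5.5e-12). Both cortex keratins were close to the floor of the data on day 10, and the groups were far apart. Krt31, also an acidic cortex keratin, was at 2.21 ± 0.201 CPM (SD, n = 4) on day 10 and 270 ± 38.6 CPM on day 12.

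Krt85 and Krt35, the hair keratins that begin lowest in the shaft, were already present on day 10. Krt85 was at 60.1, 52.9, 51.4 and 57.7 CPM on day 10 and at 493, 576, 450 and 588 CPM on day 12 (log2 fold change 3.25, standard error 0.34, adjusted p = 1.3e-08). Krt35, its usual partner, was at 38.6, 35.4, 35.9 and 36.7 CPM on day 10 and at 243, 308, 237 and 311 CPM on day 12. The day 10 mean was 10.5% of the day 12 mean for Krt85 and 13.3% for Krt35, while it was 0.0840% for Krt86 and 0.104% for Krt34. The highest such share in the list, 32.1%, was that of Krt80, a keratin that is also expressed outside the shaft, which was the smallest increase (log2 fold change 1.64, standard error 0.09).

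Per gene length, Krt85 was the most abundant hair keratin on day 12 at 220 ± 28.4 FPKM (SD, n = 4), followed by Krt33a at 198 ± 31.9 and Krt83 at 192 ± 28.4 FPKM. Neighbours at that end of the order did not differ beyond their spread. The least abundant was Krt84, a keratin of the tongue and hair cuticle, at 2.27 ± 0.730 FPKM. On day 10 the order was led by Krt85 at 21.8 ± 1.84, Krt35 at 21.6 ± 1.04 and Krt80 at 18.8 ± 1.80 FPKM, and no other hair keratin reached 4 FPKM.

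**Figure D1:**
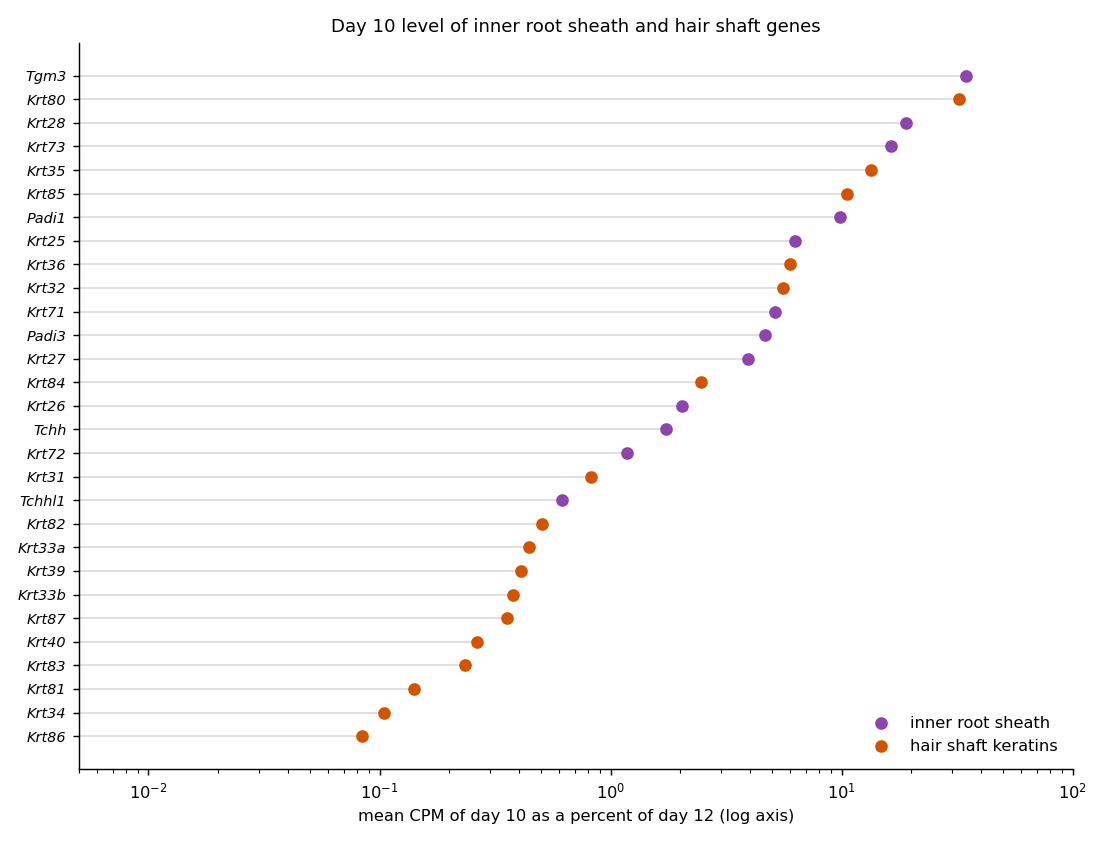
Day 10 mean CPM as a percentage of the day 12 mean CPM, on a log axis, for 12 inner root sheath genes (purple) and 17 hair shaft keratins (orange), each point the ratio of the means of 4 libraries. The shares run from 0.0840% for Krt86 to 34.4% for Tgm3, and Krt35 and Krt85 lie far to the right of Krt34 and Krt86.

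The keratin-associated proteins, which crosslink the keratin filaments of the shaft, were close to absent on day 10. The table holds 56 of their genes. In the 4 day 10 libraries together, 10 of them had no count, 15 had between 1 and 3 counts, and the highest total was 117. Their summed level was 4.33, 4.66, 3.60 and 4.47 CPM in the day 10 libraries and 2907, 4028, 2763 and 3798 CPM in the day 12 libraries. Of the 56 genes, 54 passed the filter on low counts and each of these was higher on day 12, with a median log2 fold change of 10.07, or 9.03 with the 31 genes that had at most 3 counts in every day 10 library set at their bound. A gene this low on day 10 entered the test through the days on which it was expressed, so the count describes the list and is no support for it. The other 2 genes, Krtap13 and Krtap20-2, had 0 counts on day 10 and 6 and 11 counts in all on day 12.

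Krtap8-1 and Krtap7-1, which belong to the glycine and tyrosine rich class, were the most abundant per gene length on day 12, at 745 ± 133 and 693 ± 111 FPKM (SD, n = 4), a difference smaller than their spread. Krtap8-1 was at 0.479, 0.744, 0.358 and 0.472 CPM on day 10 and at 353, 449, 328 and 468 CPM on day 12 (log2 fold change 9.59, standard error 0.62, adjusted p = 1.1e-12). Krtap15 followed at 284 ± 62.6 FPKM and Krtap11-1 at 260 ± 35.2 FPKM. Among genes with non-overlapping groups and a day 12 mean of 5 CPM or more, the 10 highest fitted log2 fold changes of the 18107 genes tested belonged to 5 members of this family and 5 predicted genes. With so few counts on day 10 this order depends on the prior count of the fit, and it does not rank the genes by the size of their rise. Krtap21-1 had no count on day 10 and 36.8, 56.7, 35.3 and 47.9 CPM on day 12, at least 587-fold higher against a floor of 3 counts per library. By the same bound Krtap19-4 was at least 341-fold, Krtap19-1 at least 320-fold and Krtap9-1 at least 121-fold higher. Krtap13-1 had 2 counts on day 10, and its ratio was 4831 with a 95% counting interval from 1337 to 39895.

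Genes named only by a predicted-gene symbol made up the other 5 of these 10. Gm9508 was at least 255-fold higher, Gm19402 at least 218-fold, Gm11565 at least 202-fold, Gm7138 at least 179-fold and Gm36176 at least 124-fold. The annotation placed the keratin-associated genes in clusters (GENCODE vM21, GRCm38, genes joined across gaps of up to 500 kb). The largest were chr11:99550130-99993994, with 23 tested family members, and chr16:88610705-89571183, with 22. Smaller clusters lay at chr7:142174535-142304594 with 5 members and chr10:77720599-77837252 with 3, and chr1:83041524-83061921 held 2 annotated members, of which 1 was tested. Of the 5 predicted genes named above, Gm7138 and Gm11565 lie within these intervals. Gm9508, Gm19402 and Gm36176 lie on chromosome 10 outside them. In these intervals 37 further genes were tested, and 35 of them were higher on day 12, beside 18.7% of all genes: 14 of 14 on chromosome 11, 11 of 11 on chromosome 10, 4 of 4 on chromosome 7 and 6 of 8 on chromosome 16. Many of these neighbours were at or near 0 CPM on day 10 too and entered the test through days on which they were expressed, so this count is likewise a description. Reads of members with similar sequence may have been shared or lost in counting, which was not tested. The value of a single gene is therefore less certain than the summed level of the family.

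The promoters of these genes have a common letter pattern. TATAAA, the core of a TATA box, was searched on both strands of RefSeq promoters (GRCm38.p6), windows of 300 bases from 250 before to 50 after a gene's start. Of the 56 keratin-associated genes 51 had a promoter in the table, and of the 17 hair shaft keratins 9. TATAAA was in 42 of 51 keratin-associated promoters (82.4%) and in 6 of 9 hair shaft keratin promoters, against 13.6% of all 32851 promoters in the table. On the gene's own strand and with its first base 20 to 40 bases before the start, it was in 31 of 51 keratin-associated promoters (60.8%) and 4 of 9 hair keratin promoters, against 1.99% of all. CTTTGA, the core of the site for LEF1 and TCF factors, was in 5 of 9 hair keratin promoters and 15 of 51 keratin-associated promoters (29.4%), against 16.0% of all. The counts describe letters in these windows and nothing about binding, and genes of a family share ancestry. The 250 bases before the start are shown for the cortex keratin Krt34 and for the member with such a TATAAA that was most abundant in CPM on day 12 in each of the large clusters, 5′ to 3′ on the gene's strand, with every TATAAA or its reverse complement in capitals.
Krt34: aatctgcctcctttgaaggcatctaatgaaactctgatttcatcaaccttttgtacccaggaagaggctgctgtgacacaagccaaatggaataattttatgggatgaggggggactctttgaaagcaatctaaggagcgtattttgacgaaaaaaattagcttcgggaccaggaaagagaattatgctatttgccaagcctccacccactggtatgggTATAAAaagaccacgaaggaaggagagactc
Krtap1-5: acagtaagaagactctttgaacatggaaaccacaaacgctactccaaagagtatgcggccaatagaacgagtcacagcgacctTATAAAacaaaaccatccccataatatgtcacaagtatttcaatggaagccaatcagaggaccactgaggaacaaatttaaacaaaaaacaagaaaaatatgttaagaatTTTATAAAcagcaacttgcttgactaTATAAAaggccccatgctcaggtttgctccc
Krtap8-1: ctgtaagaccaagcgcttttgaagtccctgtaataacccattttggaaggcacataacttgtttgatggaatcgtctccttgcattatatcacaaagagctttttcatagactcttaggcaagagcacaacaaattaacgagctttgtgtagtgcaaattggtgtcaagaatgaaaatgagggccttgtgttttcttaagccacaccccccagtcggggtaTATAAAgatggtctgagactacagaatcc

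These sequences lie at chr11:100041555-100041804 (Krt34), chr11:99581017-99581266 (Krtap1-5) and chr16:89487953-89488202 (Krtap8-1), all on the minus strand. The TATAAA begins 31 bases before the start in Krt34 and 29 bases before it in Krtap8-1. In Krtap1-5 the capitals mark 4 matches, of which 2 overlap on opposite strands.

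The inner root sheath, the outer mould of the growing hair, rose with the shaft. All 12 of its genes were higher on day 12, with a median log2 fold change of 4.35. Their summed level was 315, 275, 302 and 324 CPM on day 10 and 4714, 5702, 4480 and 5850 CPM on day 12. Together with the shaft and keratin-associated genes they took between 0.0457% and 0.0517% of the counts on day 10 and between 1.08% and 1.44% on day 12. Krt71 and Krt25, a keratin pair of all sheath layers, were the most abundant per gene length on day 12, at 776 ± 114 and 645 ± 96.3 FPKM (SD, n = 4). Krt71 was at 84.3, 70.4, 81.9 and 85.7 CPM on day 10 and at 1416, 1720, 1330 and 1784 CPM on day 12 (log2 fold change 4.28, standard error 0.40, adjusted p = 1.2e-09).

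Tchh, trichohyalin, which forms the hardening granules of the sheath and medulla, was at 21.1, 19.3, 18.2 and 22.1 CPM on day 10 and at 1051, 1279, 1039 and 1255 CPM on day 12. Its log2 fold change was 5.84 (standard error 0.45, adjusted p = 4.5e-11). Padi3, which converts arginines of trichohyalin, rose from 4.24 ± 0.542 to 90.9 ± 13.3 CPM, and Tgm3, which crosslinks it, from 11.5 ± 1.49 to 33.4 ± 4.88 CPM. Krt28 and Krt73 had been present on day 10 at 19.0% and 16.3% of their day 12 level, Krt71 at 5.16% and Tchh at 1.74%.

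Of 5 genes of the companion layer and outer root sheath, 3 were higher and 1 was lower on day 12, beside 18.7% and 20.7% of all genes. Krt75, the keratin of the companion layer, rose from 23.6 ± 2.76 to 242 ± 31.1 CPM (SD, n = 4) (log2 fold change 3.36, standard error 0.13, adjusted p = 9.2e-17). Fgf5, the signal that ends hair growth, was at 0.277, 0.248, 0.153 and 0.149 CPM on day 10 and at 4.09, 5.61, 3.87 and 4.71 CPM on day 12 (log2 fold change 4.44, standard error 0.32, adjusted p = 1e-11). Barx2, a homeobox factor of the follicle, rose with a log2 fold change of 1.27, and Fgf18, expressed in the resting follicle, fell by 0.50 on the log2 scale. Krt79, of the duct lining, had a log2 fold change of 0.22 with an adjusted p of 0.054.

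**Figure D2:**
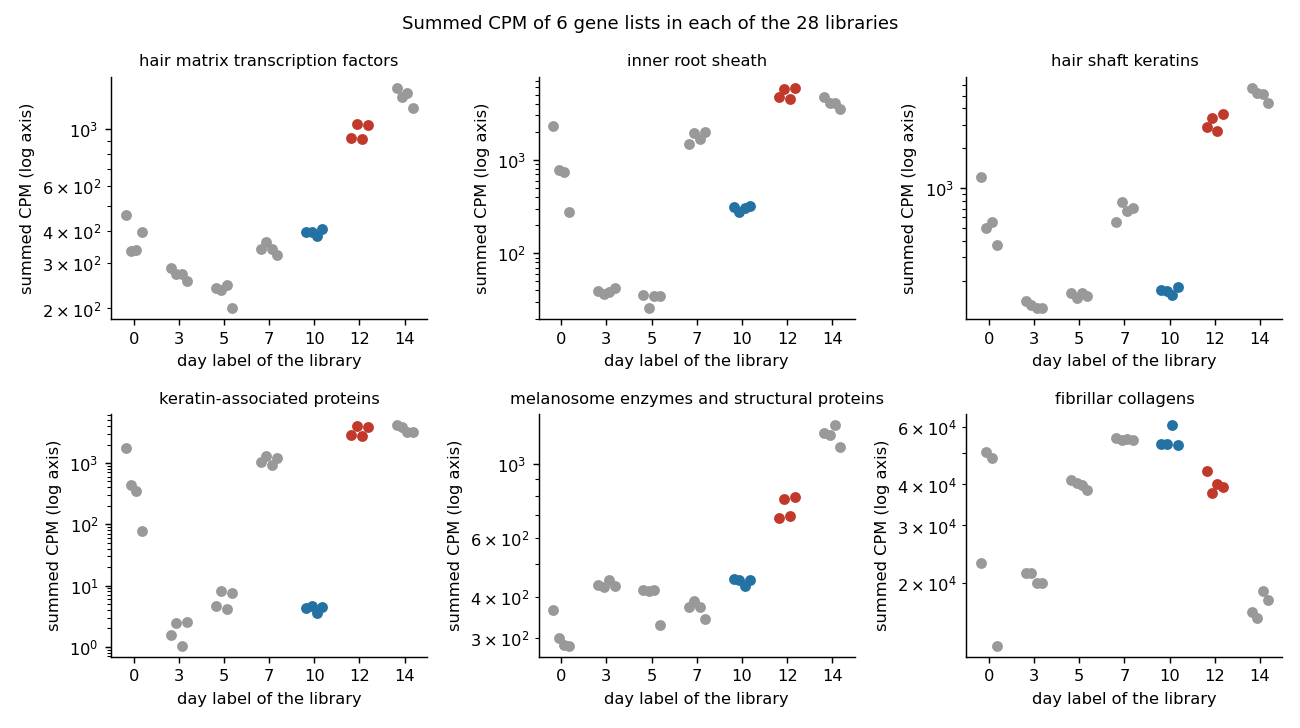
Summed TMM-scaled CPM of the genes of 6 lists in each of the 28 libraries by day, on log axes, with day 10 in blue, day 12 in red and the other days in grey. The keratin-associated genes lie between 3.60 and 4.66 CPM on day 10 and between 2763 and 4028 CPM on day 12, and were also present on days 0, 7 and 14.

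The level of hair transcripts did not move in 1 direction over the series. The keratin-associated genes summed to between 938 and 1312 CPM on day 7, stood at the values above on day 10, and were between 3229 and 4093 CPM on day 14. On days 3 and 5 they were between 1.04 and 8.26 CPM, and on day 0 between 78.8 and 1777 CPM, the widest spread of any day. The day 10 libraries therefore sit between days on which hair shaft transcripts were higher.

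The transcription factors of the hair matrix rose together, by less than the shaft genes. All 14 were higher on day 12, with a median log2 fold change of 1.54 and values from 0.34 to 3.41. Foxn1, the factor missing in nude mice, which drives shaft keratins, was at 2.70, 3.22, 2.28 and 4.00 CPM on day 10 and at 32.8, 33.7, 27.8 and 35.8 CPM on day 12. Its log2 fold change was 3.41 (standard error 0.26, adjusted p = 2.8e-11). Hoxc13, the homeobox factor of hair keratin genes, was at 13.6, 12.8, 11.8 and 13.5 CPM on day 10 and at 56.6, 70.1, 54.3 and 62.6 CPM on day 12. Foxe1 had a log2 fold change of 2.76, Msx2 of 2.10, Dlx3 of 2.03, Vdr, the vitamin D receptor needed for hair cycling, of 1.67, and Lef1, the nuclear partner of beta-catenin, of 1.60. The smallest rise was that of Trps1, at 0.34 with an adjusted p of 0.0043.

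The list of the dermal papilla, the mesenchymal cell group under the matrix, held genes of both directions. Of 17 genes, 4 were higher, 6 were lower and 7 were not called, beside 18.7% and 20.7% of all genes, with a median log2 fold change of 0.12. Corin, a protease of papilla cells, was at 13.6, 12.2, 12.9 and 12.4 CPM on day 10 and at 11.2, 14.2, 12.0 and 14.5 CPM on day 12, so that the groups overlapped (log2 fold change 0.02, standard error 0.26). The higher genes were Hhip, Bmp4, Wif1 and Fgf7, at 0.73, 0.72, 0.63 and 0.43 on the log2 scale. The lower genes were Inhba, the activin A subunit, at -1.52, Sox18 at -0.92, Rspo3 at -0.55, Tbx18 at -0.46, Alx4 at -0.40 and Enpp2 at -0.25. Sox18 is also an endothelial gene and Inhba is also expressed by wound fibroblasts. The endothelial markers were lower with them, 9 of 10 called lower, from 900 to 1044 CPM summed on day 10 and from 560 to 624 CPM on day 12, and their part in this result was not tested.

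Of 13 follicle stem cell genes, 8 were higher and 2 were lower on day 12, beside 18.7% and 20.7% of all genes. Tbx1 had a log2 fold change of 1.30, Lhx2 of 1.02, Sox9 of 0.91, Foxc1 of 0.88, Cdh3 of 0.86 and Lgr5, a receptor for R-spondins on cycling follicle stem cells, of 0.66. Lhx2 was at 19.6, 20.9, 18.5 and 20.6 CPM on day 10 and at 38.2, 46.4, 38.7 and 38.2 CPM on day 12. Krt15, the bulge keratin, had a log2 fold change of 0.26 with an adjusted p of 0.047, and Cd34, also a bulge marker but abundant in other dermal cells, had 0.17 with an adjusted p of 0.39. Nfatc1, a factor that keeps stem cells quiet, fell by 0.22 on the log2 scale and Gas1 by 0.50.

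Signals that start and sustain hair growth changed little beside the structural genes. Of 24 tested genes of the Wnt, ectodysplasin and Hedgehog pathways, 13 were higher and 2 were lower, with a median log2 fold change of 0.31 and none above 1.36. Shh, the Hedgehog ligand of the hair matrix, was at 7.06, 8.85, 6.85 and 8.44 CPM on day 10 and at 7.03, 7.65, 8.84 and 7.69 CPM on day 12 (log2 fold change 0.00, standard error 0.22). Its receptor and target Ptch1 rose from 66.0 ± 0.860 to 96.4 ± 3.59 CPM (SD, n = 4) (log2 fold change 0.55, standard error 0.08, adjusted p = 2.1e-06), and Gli2, Gli3 and Smo were also higher. Gli1, a direct target, had 0.23 with an adjusted p of 0.089.

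Among the Wnt ligands, Wnt11 had the largest rise at 1.36 on the log2 scale, and Wnt3a, Wnt3 and Wnt10b had 0.85, 0.56 and 0.56. Wnt3a had an adjusted p of 0.019 and was no longer called in 3 of the 8 fits that left out a library. Wnt5a and Dkk3 fell by 0.28 and 0.42 on the log2 scale. Axin2, a general target of the pathway, rose by 0.19 (adjusted p = 0.017). Edaradd, the adaptor of the ectodysplasin receptor, rose by 0.72, and the ligand Eda had 0.22 with an adjusted p of 0.20. Of 18 cell cycle genes, 3 were higher, Kif11, Ccnb1 and Cenpf, beside 18.7% of all genes, and Mki67 had 0.35 with an adjusted p of 0.13 (0.020 without day 0, from 2.1e-12 to 0.24 over the alternatives).

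**Figure D3:**
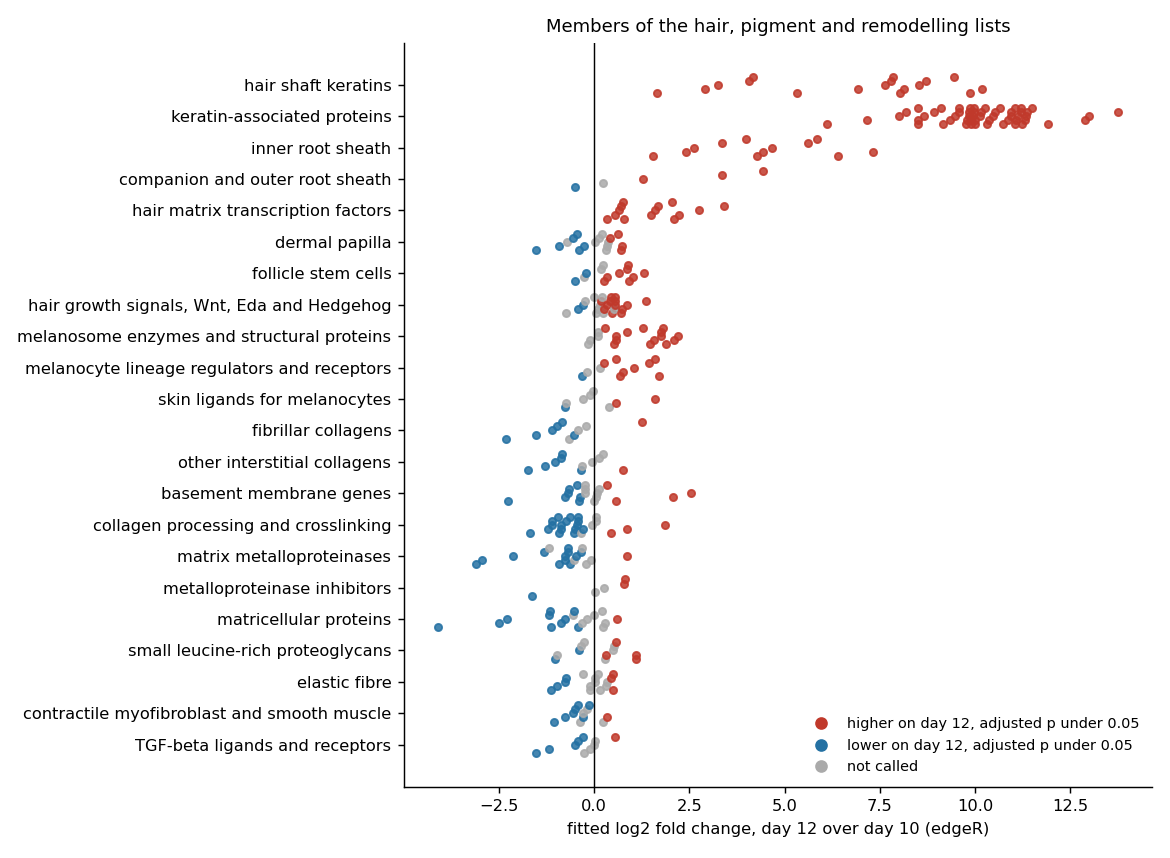
Log2 fold change of day 12 against day 10 for the tested members of each list, 1 point per gene, red where called higher, blue where called lower and grey where not called at an adjusted p of 0.05. The hair shaft, keratin-associated and inner root sheath lists lie wholly above 1.5, while most collagen, metalloproteinase and matricellular genes lie below 0.

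Pigment transcripts rose by smaller steps than the hair shaft. Of 18 genes for melanosome enzymes, structural proteins and transporters, 14 were higher on day 12, with a median log2 fold change of 1.07. Their summed level was 450, 449, 431 and 449 CPM on day 10 and 687, 782, 696 and 797 CPM on day 12. Tyr, tyrosinase, the rate-limiting enzyme of melanin synthesis, was at 11.8, 9.87, 10.6 and 10.6 CPM on day 10 and at 28.4, 35.3, 28.7 and 34.4 CPM on day 12. Its log2 fold change was 1.56 (standard error 0.28, adjusted p = 6e-05). Tyrp1 and Dct, the other enzymes of eumelanin synthesis, had 1.47 (standard error 0.27) and 0.86 (standard error 0.15). Dct was at 73.1, 73.2, 65.1 and 71.1 CPM on day 10 and at 116, 139, 118 and 138 CPM on day 12.

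Pmel, which forms the fibrils on which melanin settles, was at 33.6, 34.3, 31.7 and 35.1 CPM on day 10 and at 70.0, 88.1, 73.7 and 94.6 CPM on day 12 (log2 fold change 1.28, standard error 0.26, adjusted p = 0.00024). Mlana, a melanosome membrane protein, was at 7.26, 6.82, 5.98 and 6.93 CPM on day 10 and at 21.2, 26.0, 23.1 and 24.3 CPM on day 12 (log2 fold change 1.81, standard error 0.22, adjusted p = 1.5e-07). The groups of both genes did not overlap. Larger log2 fold changes were those of the less abundant Gpr143 (2.21), Oca2 (2.09) and Trpm1 (1.88), and the ion transporters Slc45a2 and Slc24a5 had 1.76 each. Genes of melanosome transport, which other cells also express, had the smallest rises, with 0.58 for Mlph, 0.56 for Mreg, 0.51 for Rab38 and 0.28 for Rab27a. Slc7a11, Rab32, Myo5a and Bace2 were not called.

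CATGTG, the core of the site bound by the melanocyte factor MITF, was searched on both strands of the same 300-base promoter windows. Of the 18 melanosome genes, 12 had a promoter in the table, and 8 of their 15 promoters held it (53.3%), against 14.2% of all promoters. Of 15 promoters of 8 genes of the melanocyte lineage list, 1 held it, that of Mc1r. The promoters of the 3 melanin enzymes are shown as the 250 bases before the start, 5′ to 3′ on the gene's strand, with CATGTG or its reverse complement in capitals.
Tyr: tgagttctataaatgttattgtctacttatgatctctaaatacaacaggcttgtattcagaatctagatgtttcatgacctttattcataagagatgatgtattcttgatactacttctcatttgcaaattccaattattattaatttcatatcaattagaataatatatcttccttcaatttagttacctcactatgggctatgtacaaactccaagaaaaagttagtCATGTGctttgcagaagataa
Tyrp1: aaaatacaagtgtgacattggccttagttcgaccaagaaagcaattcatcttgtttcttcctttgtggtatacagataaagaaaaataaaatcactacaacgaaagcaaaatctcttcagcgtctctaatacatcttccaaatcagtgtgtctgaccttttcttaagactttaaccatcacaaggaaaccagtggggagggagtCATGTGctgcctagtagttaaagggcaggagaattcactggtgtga
Dct: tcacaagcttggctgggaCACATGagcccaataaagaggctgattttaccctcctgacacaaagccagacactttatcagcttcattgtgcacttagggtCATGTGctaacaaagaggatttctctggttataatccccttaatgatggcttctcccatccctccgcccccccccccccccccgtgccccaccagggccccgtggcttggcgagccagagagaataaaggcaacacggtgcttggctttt

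They lie at chr7:87493513-87493762 (Tyr, minus strand), chr4:80833963-80834212 (Tyrp1, plus strand) and chr14:118052247-118052496 (Dct, minus strand). The match begins 21 bases before the start in Tyr and 46 bases before it in Tyrp1. In Dct it begins 232 and 150 bases before the start, once on each strand. Among the other melanosome genes with the letters, Oca2, Slc24a5 and Trpm1 were higher on day 12 and Slc7a11 was not called.

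**Figure D4:**
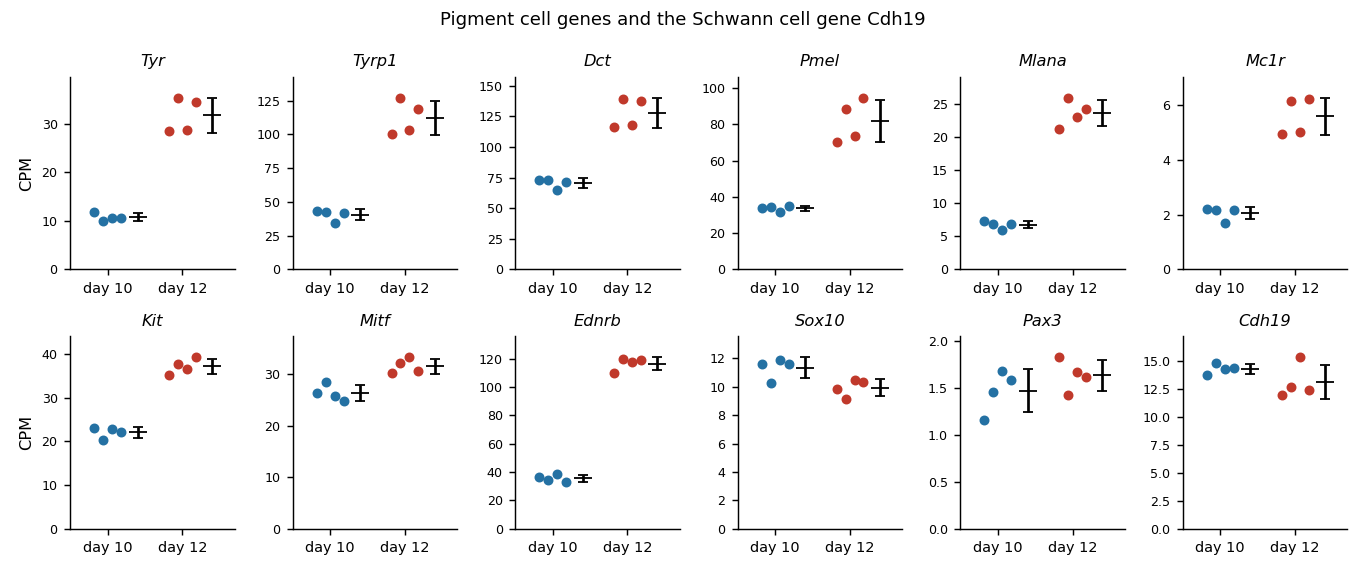
TMM-scaled CPM of 12 pigment, lineage and Schwann cell genes in the 4 day 10 and 4 day 12 libraries, each point a library and each bar the mean ± SD. Tyr, Tyrp1, Dct, Pmel, Mlana, Mc1r, Kit, Mitf and Ednrb were higher on day 12, while Sox10, Pax3 and Cdh19 had overlapping groups.

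Of 11 genes for melanocyte regulators and receptors, 8 were higher and 1 was lower, beside 18.7% and 20.7% of all genes. Ednrb, the endothelin receptor that melanocytes and their precursors use, was at 36.4, 34.4, 39.0 and 33.2 CPM on day 10 and at 110, 120, 118 and 119 CPM on day 12 (log2 fold change 1.71, standard error 0.12, adjusted p = 3e-12). Mc1r, the melanocortin receptor that sets eumelanin synthesis, rose from 2.06 ± 0.234 to 5.58 ± 0.681 CPM (SD, n = 4), with a log2 fold change of 1.44 (adjusted p = 0.00025). Kit, the receptor for stem cell factor, rose by 0.75 on the log2 scale, and Mitf, the factor over the pigment enzymes, by 0.26 (adjusted p = 0.014). Ednrb, Kit and Mitf are also expressed by vessels, mast cells or other stromal cells.

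Sox10 and Pax3, the early factors of the lineage, were not called. Sox10 was at 11.6, 10.3, 11.9 and 11.6 CPM on day 10 and at 9.82, 9.14, 10.4 and 10.3 CPM on day 12, with a log2 fold change of -0.19 and an adjusted p of 0.42. Sox10 is shared with Schwann cells, the other neural crest cells of skin. Their markers summed to between 264 and 273 CPM on day 10 and between 282 and 305 CPM on day 12, with 2 of 9 called higher (Mbp and Prx), beside 18.7% of all genes. Cdh19, a cadherin of the glial lineage, had a log2 fold change of -0.13 with an adjusted p of 0.53.

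Skin ligands that act on melanocytes moved little. Of 8 genes, Edn1 rose by 0.57 on the log2 scale (adjusted p = 0.0047), Hgf fell by 0.77 (adjusted p = 1.1e-06), and Kitl, stem cell factor, had -0.11 with an adjusted p of 0.25. Edn3, the endothelin of melanocyte development, had 0.40 with an adjusted p of 0.12. Agrp, an antagonist of melanocortin receptors, was called at a log2 fold change of 1.61 with an adjusted p of 0.043, from levels of 0.202 CPM or less on day 10 and 0.353 CPM or less on day 12. The value was 2.28 without day 10 replicate 1. The call was lost in 7 of 17 alternatives, with adjusted p-values from 0.0014 to 0.13. On day 14 the mean levels of Tyr, Tyrp1, Dct and Pmel were 62.0, 223, 256 and 196 CPM, each above its highest day 12 library.

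The matrix of the wound moved the other way from the hair. Of 10 fibrillar collagens, 6 were lower and 1 was higher on day 12, beside a background of 20.7% of genes lower, with a median log2 fold change of -0.76. Their summed level went from between 52839 and 60499 CPM, 5.39% to 5.99% of the counts, to between 37645 and 43941 CPM, 4.09% to 4.66% of the counts. The abundant chains changed least. Col3a1, the collagen of young scar, was at 20995, 20625, 22714 and 20326 CPM on day 10 and at 15664, 13591, 14536 and 14619 CPM on day 12 (log2 fold change -0.54, standard error 0.20, adjusted p = 0.035).

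Col1a1 was between 15440 and 18670 CPM on day 10 and between 11332 and 13487 CPM on day 12, so that the groups did not overlap, yet its log2 fold change of -0.44 had an adjusted p of 0.14. This gene varied widely among the day 0 libraries, whose spread is pooled into the test. In a fit of the 24 libraries without day 0 its adjusted p was 3.8e-06, and over all 21 alternatives it ranged from 2.6e-12 to 0.29. The same fit gave Col3a1 an adjusted p of 3.6e-10, in a range from 5e-30 to 0.11, and Col3a1 was not called in 11 of the 21 alternatives. Col1a2 had a log2 fold change of -0.22 with an adjusted p of 0.50.

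The chains that regulate fibril width fell further. Col5a1, which limits the diameter of collagen I fibrils, was at 1821, 1784, 2111 and 1754 CPM on day 10 and at 910, 808, 845 and 874 CPM on day 12 (log2 fold change -1.12, standard error 0.16, adjusted p = 1.4e-06). Col5a2 and Col5a3 had -0.85 and -0.97, and the minor chains Col27a1 and Col24a1 had -1.53 and -2.33. Col11a1 was the exception, at 39.3, 38.5, 40.4 and 34.0 CPM on day 10 and at 92.0, 88.9, 85.1 and 97.0 CPM on day 12 (log2 fold change 1.25, standard error 0.14, adjusted p = 6.7e-08).

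Of 11 other interstitial collagens, 6 were lower and 1, Col8a2, was higher. Col12a1, which bridges fibrils in tissue under tension, was at 1137, 1084, 1266 and 1043 CPM on day 10 and at 339, 332, 333 and 363 CPM on day 12 (log2 fold change -1.73, standard error 0.18, adjusted p = 1.1e-08). The collagen VI chains Col6a1, Col6a2, Col6a3 and Col6a5 had between -0.84 and -1.28.

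Basement membrane genes went both ways. Of 18, 7 were lower and 4 were higher, beside 20.7% and 18.7% of all genes. Col7a1, the anchoring fibril of the dermal-epidermal junction, was at 279, 263, 317 and 262 CPM on day 10 and at 56.5, 59.0, 60.2 and 59.0 CPM on day 12 (log2 fold change -2.26, standard error 0.14, adjusted p = 4e-13). Col4a1 and Col4a2, the common chains of vessels and epidermis, had -0.40 and -0.46. Col4a3 and Col4a4, the chains of specialised basement membranes, rose with 2.54 (standard error 0.35) and 2.07 (standard error 0.25). Col4a3 was at 1.46, 1.56, 1.35 and 1.17 CPM on day 10 and at 8.01, 7.85, 8.27 and 8.08 CPM on day 12, and its day 14 mean was 1.78 CPM.

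Enzymes and chaperones that fold, trim and crosslink collagen were mostly lower. Of 23, 16 were lower and 3 were higher, with a median log2 fold change of -0.51. P4ha3, a prolyl hydroxylase, had -1.69, Loxl3 -1.21, Adamts14 -1.11, Fkbp10 -1.10 and Loxl2 -0.95, and Serpinh1, the collagen chaperone HSP47, had -0.73. Lox, the main crosslinking oxidase, was between 336 and 372 CPM on day 10 and between 263 and 288 CPM on day 12, with a log2 fold change of -0.35 and an adjusted p of 0.11 (2e-06 without day 0, from 5.3e-14 to 0.28 over the alternatives). Pcolce2, an enhancer of procollagen cleavage, rose from 29.7 ± 1.02 to 108 ± 16.1 CPM (SD, n = 4), with a log2 fold change of 1.86, and was at 21.7 CPM on day 14.

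Metalloproteinase transcripts, whose products cut collagen and other matrix, mostly fell. Of 18 tested members, out of 23 in the table, 12 were lower and 1 was higher, with a median log2 fold change of -0.69. Mmp13, the interstitial collagenase of mouse wounds, was at 29.8, 30.6, 33.7 and 25.2 CPM on day 10 and at 3.15, 4.07, 2.79 and 3.90 CPM on day 12 (log2 fold change -3.10, standard error 0.32, adjusted p = 7.4e-09). Mmp9, a gelatinase also carried by neutrophils, was at 34.7, 34.6, 42.7 and 36.8 CPM on day 10 and at 8.98, 8.40, 7.84 and 8.54 CPM on day 12 (log2 fold change -2.14, standard error 0.27). Mmp10, a stromelysin of migrating keratinocytes, had -2.96, and Mmp11 and the membrane-bound Mmp14 had -1.32 and -0.69.

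Mmp2, Mmp3 and Mmp12 were not called. Mmp12, macrophage elastase, had a log2 fold change of -0.53 with an adjusted p of 0.21 (4.7e-05 without day 0, from 1.6e-18 to 0.34 over the alternatives). Mmp27 rose by 0.86 on the log2 scale. Among the inhibitors, Timp1 fell with the proteases, from 50.3 ± 2.03 to 16.2 ± 2.04 CPM (log2 fold change -1.63, standard error 0.24, adjusted p = 2.9e-06). Timp3 rose from 296 ± 14.0 to 510 ± 10.8 CPM (log2 fold change 0.79, standard error 0.05, adjusted p = 1.7e-12), and Reck, a membrane-bound inhibitor, by 0.82 on the log2 scale.

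**Figure D5:**
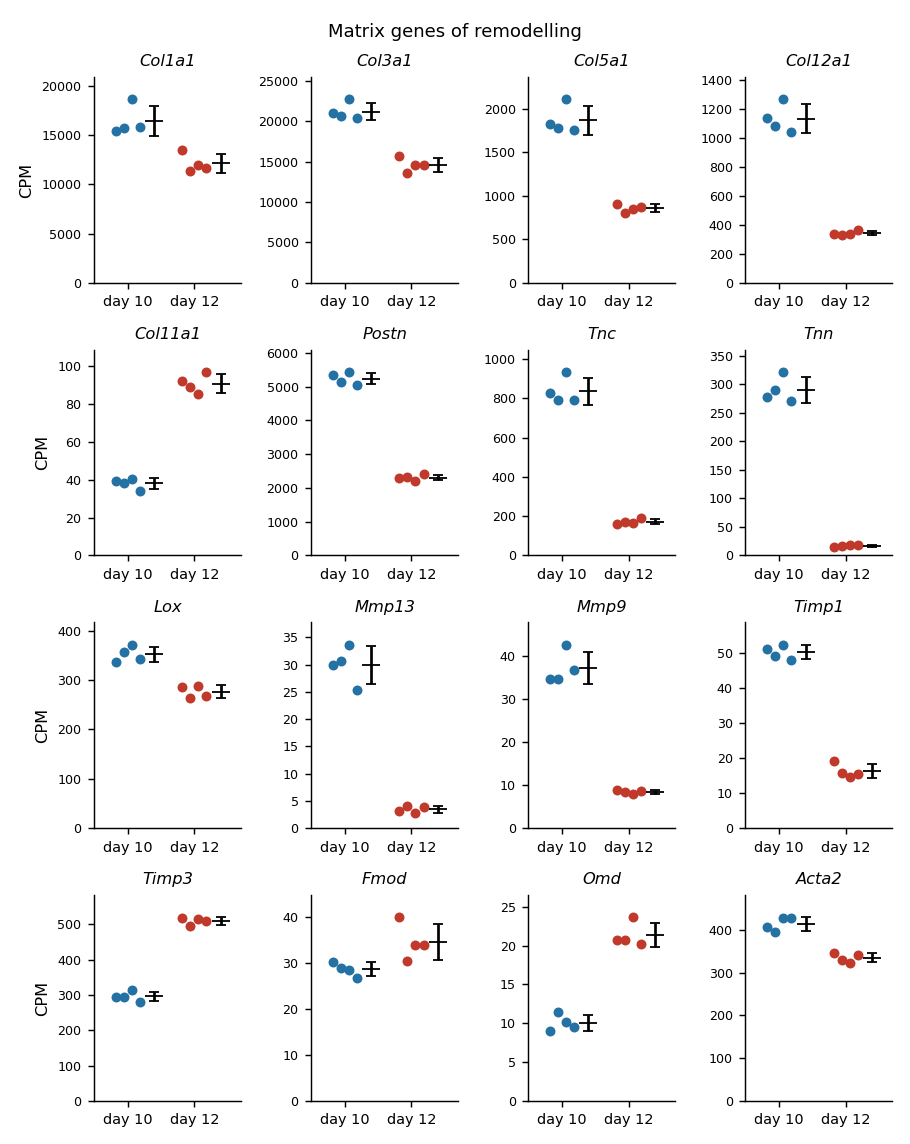
TMM-scaled CPM of 16 matrix and remodelling genes in the 4 day 10 and 4 day 12 libraries, each point a library and each bar the mean ± SD. Tnn, Mmp13, Tnc, Mmp9, Col12a1 and Timp1 were lower on day 12, Col11a1, Timp3 and Omd were higher, and Col1a1, Lox and Fmod did not overlap but were not called in the fit of 28 libraries.

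Matricellular proteins, which mark young wound matrix and steer the cells on it, were mostly lower. Of 18, 10 were lower and 1, Tnxb, was higher. Tnn, tenascin W, was at 279, 290, 322 and 271 CPM on day 10 and at 15.2, 15.8, 18.0 and 18.6 CPM on day 12 (log2 fold change -4.10, standard error 0.21, adjusted p = 1.3e-14). Tnc, tenascin C of the wound margin, was at 826, 791, 935 and 793 CPM on day 10 and at 163, 170, 164 and 193 CPM on day 12 (log2 fold change -2.28, standard error 0.40). Spp1, osteopontin, had -2.49, and Postn, periostin, went from 5237 ± 177 to 2307 ± 84.7 CPM (SD, n = 4) (log2 fold change -1.18, standard error 0.12, adjusted p = 5.7e-09). Cthrc1 and Ccn4 had -1.16 and -1.15. Ccn2, Sparc and Fn1 were not called, at 0.22, -0.19 and -0.57.

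The small leucine-rich proteoglycans, which space and protect mature collagen fibrils, went both ways. Of 12, 6 were not called, 4 were higher (Omd and Ecm2 at 1.09 each, Prelp at 0.57, Podn at 0.31) and 2 were lower (Kera at -1.04, Bgn at -0.40), beside 18.7% and 20.7% of all genes. Omd was at 8.95, 11.4, 10.1 and 9.56 CPM on day 10 and at 20.8, 20.7, 23.7 and 20.3 CPM on day 12. Dcn, decorin, was between 1758 and 1847 CPM on day 10 and between 2403 and 2811 CPM on day 12, a log2 fold change of 0.53 with an adjusted p of 0.057 (1.3e-09 without day 0, from 1.4e-34 to 0.12 over the alternatives). Of 16 elastic fibre genes, 3 were higher and 4 were lower, beside 18.7% and 20.7% of all genes, with a median of 0.02 that turned to -0.02 with upper quartile scaling. Fbln2 and Emilin1 had -1.14 and -0.98, Mfap4 and Efemp1 had 0.50 each, and Eln, elastin, had 0.31 with an adjusted p of 0.055 (7.9e-05 without day 0, from 1.9e-09 to 0.12 over the alternatives).

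Contractile genes of myofibroblasts and smooth muscle were mostly lower. Of 12, 7 were lower, 4 were not called and 1, Smtn, was higher, with a median log2 fold change of -0.34. Acta2, the actin of myofibroblasts, was at 408, 395, 427 and 427 CPM on day 10 and at 346, 331, 322 and 342 CPM on day 12. Its log2 fold change of -0.31 had an adjusted p of 0.042, from 1.7e-13 to 0.15 over the alternatives, and was not called in 11 of 21 of them. Des, which skeletal muscle also expresses, fell by 1.05 and Cnn1 by 0.76 on the log2 scale, and Tagln had 0.24 with an adjusted p of 0.16 (0.0013 without day 0, from 2.9e-08 to 0.28 over the alternatives). Of 10 TGF-beta ligands, receptors and targets, 5 were lower, beside 20.7% of all genes. The lower genes included Inhba at -1.52, Tgfb1 at -0.50 and Tgfb3 at -0.44. Smad7, an inhibitor of the pathway, rose by 0.53.

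Other tissues of the site moved with the matrix. Skeletal muscle markers summed to between 13757 and 17557 CPM on day 10 and between 10135 and 11453 CPM on day 12, with 12 of 15 called lower and log2 fold changes of all 15 from -0.97 to -0.23. White adipocyte markers summed to between 6115 and 6628 CPM on day 10 and between 4516 and 4778 CPM on day 12, with 8 of 10 lower, and hemoglobin and other red cell genes were lower in 5 of 5, from between 760 and 893 to between 285 and 358 CPM. The defining markers Acta1, Adipoq, Pecam1 and Hba-a1 were present in all 8 libraries. Day 10 replicate 3 held the highest summed levels of fibrillar collagens, skeletal muscle and endothelial markers among the 8 libraries. The part of these tissues in the collagen, protease and contractile gene results was not tested.

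Most wound edge keratinocyte genes were lower and most genes of differentiated epidermis were higher. Of 15 wound edge keratinocyte genes, 13 were lower and 2 were higher, with a median log2 fold change of -3.38. S100a8 and S100a9, among the lower genes, are also in the neutrophil list. Krt6b and Krt16, keratins of migrating epidermis, went from 334 ± 32.3 to 28.4 ± 4.64 CPM and from 391 ± 23.4 to 37.5 ± 3.49 CPM (SD, n = 4), log2 fold changes of -3.56 and -3.38. The 2 higher genes were Krt17, which the outer root sheath and hair matrix also express, at 1.16, and Sprr1a at 1.69. Of 12 genes of differentiated epidermis, 8 were higher. Krt10, the keratin of the spinous layer, was at 715, 712, 647 and 768 CPM on day 10 and at 1649, 1720, 1683 and 1515 CPM on day 12 (log2 fold change 1.21, adjusted p = 1.2e-10), and Krt77, of sweat ducts and upper epidermis, had 2.37. Krt2 had 3.26, Flg2 1.84 and Ivl 1.49, and Krt1, the partner of Krt10, had 0.04 with an adjusted p of 0.81. Krt14 of the basal layer fell by 0.79, and Krt5, its partner, had -0.14 with an adjusted p of 0.52.

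Neutrophil transcripts fell over the same step, macrophage genes went both ways and T and NK cell genes were mostly higher. Of 14 neutrophil genes, 13 were lower with a median log2 fold change of -3.61, or -3.36 with 2 genes of at most 3 counts in every day 12 library at their bound, and their summed level went from between 340 and 404 CPM to between 34.0 and 38.4 CPM. Il1b was at 55.4, 56.3, 70.5 and 52.0 CPM on day 10 and at 6.51, 5.39, 4.96 and 4.71 CPM on day 12 (log2 fold change -3.44, standard error 0.20, adjusted p = 1.1e-13). Of 16 macrophage genes, 5 were higher and 6 were lower, beside 18.7% and 20.7% of all genes. Retnla, Cd163 and Mrc1 had 2.79, 1.99 and 0.47, and the complement genes C1qa and C1qc had 0.30 and 0.24. Of the 6 lower genes, 5 were Trem2 at -0.95, Ms4a7 at -0.68, Cd68 at -0.46, the lysozyme gene Lyz2 at -0.41 and Gpnmb at -0.31. The lowest log2 fold change in the list was -1.665. Adgre1 and Csf1r, which most macrophages express, were not called, at 0.15 and 0.06. Of 11 T and NK cell genes, 7 were higher, among them Cd3e at 0.93, and their sum was between 33.9 and 37.9 CPM on day 10 and between 49.6 and 57.7 CPM on day 12.

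The 10 lowest fitted log2 fold changes, chosen by the matching rule, belonged to inflammatory and epidermal genes, with a pair from fat and lipid metabolism. The chemokines Cxcl2, Cxcl3 and Cxcl5 had log2 fold changes of -5.59, -4.81 and -4.40, Trem1 of myeloid cells had -4.79, and the stefin Stfa2l1 had -4.58. Cstdc4, also a stefin, had at most 3 counts in each day 12 library and was at least 73.9-fold lower. Sprr2a2 and Sprr2a1, near-identical copies, had -4.90 and -4.45, and Sprr2a2 had -4.21 without day 10 replicate 4. Ucp1, the uncoupling protein of brown and beige fat, was at 296, 298, 327 and 291 CPM on day 10 and at 5.34, 10.7, 6.73 and 7.20 CPM on day 12 (log2 fold change -5.34, standard error 0.22, adjusted p = 2.2e-16), and its day 14 mean was 531 CPM. Slc27a2, a fatty acid transporter, had -4.47 and likewise stood at 23.0 CPM on day 14, against 23.6 CPM on day 10 and 1.06 CPM on day 12.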

How the data were processed

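RNA of whole wound sites from 28 libraries, 4 on each of 7 days, had been sequenced. As deposited by the authors, 1 table holds read counts per gene with no normalization, and there is a table of FPKM, which the authors made from those counts by dividing by gene length and library total. The submitters' processing notes name fastp, the mm10 build and R 3.2.0. The aligner, counter, annotation and strandedness are not given in the sources used here. Groups came from the sample labels.

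From the counts, edgeR 4.0.16 in R 4.3.3 was used with TMM scaling, its default filter on low counts and a quasi-likelihood fit of all 28 libraries, with 21 residual degrees of freedom and no covariate. Day 12 was tested against day 10, and p-values were adjusted by Benjamini-Hochberg over the 18107 genes tested. Log2 fold changes are from this fit, and CPM and FPKM are given per library or as mean ± SD. Library totals are in the report, and intervals and the floor of 3 counts per library cover counting error only. The members, gene lists and promoter motifs were chosen with earlier results of these data known. Named genes were preset genes of each list, up to 4 of the largest changes in each hair, pigment and remodelling list, and the 10 largest increases and decreases overall. Further list members are named to account for a count, and some list members are counted but not reported by name here. Of 511 listed genes, 10 stand in more than 1 list.

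DESeq2 1.42.0, limma 3.58.1 on log2(FPKM + 1) and log2(FPKM + 0.1), other scalings, filters, library sets and a replicate block were alternatives. Same-numbered libraries of the days did not deviate together (r from -0.0029 to 0.0536), so the numbers were not treated as pairs. Replicates differed by more than sampling noise. The fit was tested on simulated data. Promoters came from RefSeq (GRCm38.p6), gene positions from GENCODE vM21 (GRCm38).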

Additional observations from a re-analysis of the deposited data

Results flagged for a closer look

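In 284 groups of 4 libraries (142 named genes on each day), the highest or lowest library stood apart from the other 3 by Dixon's ratio at its 95% critical value in 13, or 4.58%, and chance gives about 1 group in 20. On day 10, replicate 3 held 6 of them. It was highest for Col1a1 at 18670 CPM, Col6a1 at 2002 CPM, Mmp12 at 407 CPM and Nid2 at 180 CPM, and lay apart for Prelp at 125 CPM and Mc1r at 1.71 CPM. Replicate 2 of day 10 was apart for Sox10 at 10.3 CPM and Barx2 at 13.3 CPM, and replicate 4 for Krt5 at 1919 CPM. On day 12, replicate 2 was apart for Lhx2 at 46.4 CPM, Gpr143 at 3.21 CPM and Adamts14 at 15.3 CPM, and replicate 3 for Omd at 23.7 CPM.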

How the results depend on the processing

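Without any scaling beyond library totals 4824 genes were higher and 2744 lower, and limma gave 4857 and 2781 on log2(FPKM + 1) and 4813 and 2741 on log2(FPKM + 0.1). On the 8 libraries of both days edgeR called 4567 and 4493, and DESeq2 4632 and 4479 (3531 and 3889 on 28 libraries). The criteria of the study left 628 and 460, and a 2-fold limit 995 and 789. Without 1 library there were 3028 to 3305 higher and 3238 to 3518 lower. The replicate numbers are shared by all days but mark no pairing in the labels, and a replicate block on the 8 libraries gave 4479 and 4423. No setting moved the median of all genes by more than 0.0897.

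With at least 10 counts in every library the list medians were 6.94 for hair shaft keratins, 9.05 for keratin-associated proteins 0.75 for companion and outer root sheath, -3.06 for neutrophil and -2.996 for wound edge genes. With limma on log2(FPKM + 1) they were 5.00 for hair shaft keratins, 5.65 for keratin-associated proteins, 3.91 for the inner root sheath, 1.41 for matrix transcription factors, 0.88 for melanosome genes, -0.60 for fibrillar and -0.25 for other collagens, -0.40 for collagen processing, -0.42 for metalloproteinases, -0.45 for matricellular, 0.10 for elastic fibre, -0.24 for contractile, -0.17 for TGF-beta, -1.26 for neutrophil and -2.30 for wound edge genes. On log2(FPKM + 0.1) they were 7.01 (hair shaft), 8.40 (keratin-associated), 0.39 for growth signals, 1.15 (melanosome), -0.60 and -0.26 (collagens), -0.46 (matricellular), 0.11 (elastic), -0.25 (contractile), -0.19 (TGF-beta) and -2.52 (neutrophil). Without composition scaling they were 0.40 for growth signals, 1.16 for melanosome and 0.76 for lineage genes, -0.26 for other collagens, 0.36 for metalloproteinase inhibitors, -0.46 (matricellular), 0.11 (elastic), -0.25 (contractile) and -0.19 (TGF-beta). Without 1 library the keratin-associated median was 9.96 to 10.40 and that of growth signals 0.31 to 0.39. The cause of these shifts was not tested.

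Of 142 named genes, 16 changed their call in some setting, 4 losing it (Acta2, Agrp, Col3a1 and Wnt3a) and 12 gaining it (Adgre1, Col14a1, Col1a1, Dcn, Eln, Fmod, Gli1, Krt5, Lox, Mki67, Mmp12 and Tagln). Direction turned for 3 genes that were not called. Corin was at -0.012 with upper quartile scaling, -0.0048 with Xist as a covariate and from -0.036 to 0.084 without 1 library. Shh was at -0.034 with upper quartile scaling, -0.0054 without a filter, -0.00026 without day 0, -0.059 with Xist and from -0.067 to 0.081 without 1 library. Mmp3 was at 0.011 without composition scaling and with both limma fits.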

Other observations

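Genes outside the hair lists, chosen after their values were seen, also rose. Gprc5d, an orphan receptor of hard keratinised tissue, went from a mean of 0.357 CPM on day 10 to 88.3 CPM on day 12 (log2 fold change 7.94), S100a3, a calcium-binding protein of the hair cuticle, from 21.5 to 714 CPM (5.05), Dsg4, the desmoglein of the hair shaft, from 2.10 to 29.5 CPM (3.81), and Vsig8 from 5.16 to 235 CPM (5.51).

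Brown adipocyte markers summed to between 765 and 818 CPM on day 10 and between 207 and 228 CPM on day 12, with 6 of 8 called lower, among them Cidea at -2.13, Cox8b at -1.81 and Cox7a1 at -1.86. The sebaceous gland list was mixed, with 4 of 13 higher and 5 lower, beside 18.7% and 20.7% of all genes.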
